A study of Mus musculus with 10 samples.

Results

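The genes described here belong to the type I interferon response: Irf7, Irf9, Ifit1, Ifit3, Isg15, Usp18, Oasl2, Bst2 and Ifitm3. They were taken by symbol from a list drawn up with earlier results of these data known, and a gene counted as measured where a probe set was annotated with that symbol alone. Of the 9 genes listed, 8 were measured, each by 1 probe set, among 19938 genes measured in all. The probe set of Isg15 carries the symbol of a further gene as well, so no value is given for Isg15.

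The series asked whether exposure to alcohol around birth leaves a difference in adult brain gene expression. The ethanol groups were male C57BL/6J offspring, at postnatal day 70, of mothers that drank 10% ethanol in their water from gestational day 0 until the pups were 10 days old, and the control groups were male offspring of the same strain and age whose mothers drank water only. Whole-brain RNA was pooled before hybridisation to Affymetrix whole-transcript arrays. Experiment 1 had 2 ethanol and 2 control arrays with 3 mice in each pool, and experiment 2 had 3 ethanol and 3 control arrays with 2 mice in each pool, 24 mice in all. Whether mice of a litter went into more than one pool is not given in the sources used here, and the p-values reflect the variation from pool to pool.

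Type I interferons are antiviral cytokines that bind a receptor made of Ifnar1 and Ifnar2. The kinases Jak1 and Tyk2 on that receptor activate STAT proteins, which join Irf9 in a complex named ISGF3. This complex binds the interferon-stimulated response element in the promoters of target genes, and their products restrict viral entry, translation and release. Irf7, itself a target, raises further interferon production, while Usp18 ends signalling at the receptor. In the brain, microglia, astrocytes, endothelial cells and neurons can all mount this response, and its genes are usually little transcribed without infection or injury.

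The promoters are shown because the interferon-stimulated response element is the site through which ISGF3 acts. The genes were listed as members of the response that ISGF3 drives, so matches in their promoters are no independent evidence. RefSeq promoter windows (GRCm38.p6, 250 bases before to 50 after the start site) were given for 8 of the 9 genes. The core of the element was searched as GAAANNGAAA on both strands. It was found in the windows of 5 genes, Ifit1, Ifit3, Isg15, Bst2 and Ifitm3, and in 3.44% of all 32851 windows. The matching stretches follow, read along the gene's own strand, with the bases of the matches in capitals.
Ifit1, chr19:34640765-34640833, plus strand: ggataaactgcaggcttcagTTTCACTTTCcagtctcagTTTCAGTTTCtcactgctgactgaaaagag
Ifit3, chr19:34583353-34583436, plus strand: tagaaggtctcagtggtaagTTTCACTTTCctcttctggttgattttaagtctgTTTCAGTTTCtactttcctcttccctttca
Isg15, chr4:156200855-156200916, minus strand: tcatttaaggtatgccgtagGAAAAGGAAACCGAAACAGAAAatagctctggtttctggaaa
Bst2, chr8:71537567-71537622, minus strand: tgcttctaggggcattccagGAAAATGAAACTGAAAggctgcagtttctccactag
Ifitm3, chr7:141010696-141010762, minus strand: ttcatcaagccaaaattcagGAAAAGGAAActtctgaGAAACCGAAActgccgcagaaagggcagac

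Ifit1 and Ifit3, neighbours on chromosome 19, each held 2 separate matches. In both genes the match farther from the start site read TTTCACTTTC and the nearer one TTTCAGTTTC. Counting bases from the start site, with negative positions before it, these lay at -104 to -95 and -85 to -76 in Ifit1 and at -156 to -147 and -122 to -113 in Ifit3. Isg15 had 3 overlapping matches at -78 to -57, and Bst2 had 2 overlapping ones at -130 to -115. The 2 matches of Ifitm3 lay after its start site, at positions 3 to 12 and 20 to 29. The gamma-activated site, searched as TTCNNNGAA on both strands, was present in the windows of Bst2 and Ifitm3, where it overlapped the other motif, and in 8.3% of all windows. Neither set of letters was in the windows of Irf7, Irf9 and Oasl2. A match describes the sequence and is no measure of binding.

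**Figure D1:**
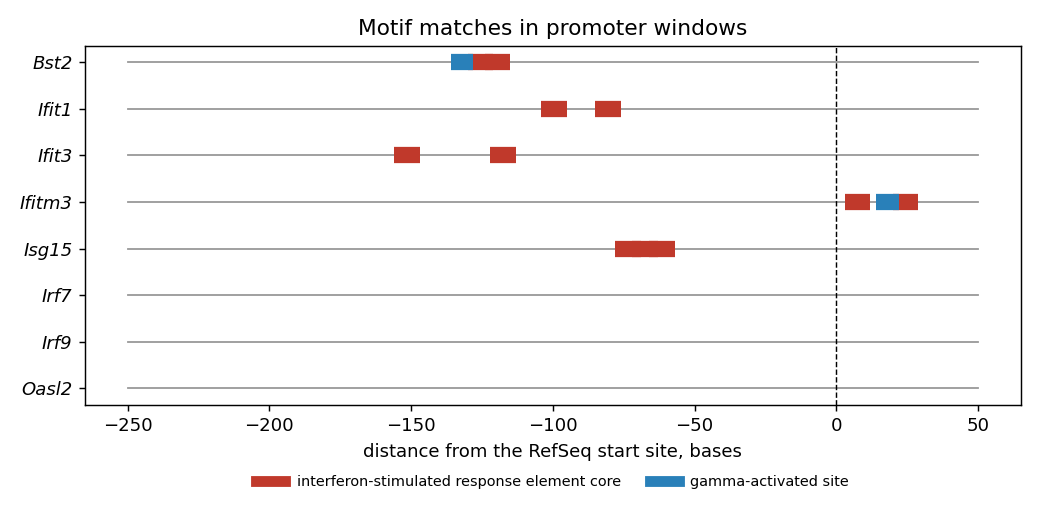
Motif matches in the RefSeq promoter windows of 8 interferon response genes, against distance from the start site in bases (dashed line at the start). Red bars are matches to the interferon-stimulated response element core, found in 5 genes, and blue bars matches to the gamma-activated site, found in Bst2 and Ifitm3.

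The deposited values are log2 expression levels, in which a difference of 1 is a doubling of signal. Each probe set had the same mean in both experiments, to within 5.83e-05 log2 units, so a difference between the experiments had been removed before deposit and levels are compared only within an experiment. Array medians ran from 6.99 to 7.05, and array pairs correlated across probe sets at 0.989 to 0.996. Of 12 neuronal and glial markers fixed to check the tissue label, 11 were measured, and their mean level was 11.5 to 11.6 on every array. Pituitary markers set 3 ethanol arrays apart: the mean log2 level of 8 such genes was 8.02 and 7.23 on the experiment 1 ethanol arrays, against 5.82 and 5.97 on the experiment 1 controls, and 6.38, 8.55 and 6.41 on the experiment 2 ethanol arrays, against 6.32, 6.25 and 6.66 on the controls. Differences are ethanol minus control from limma, with p-values adjusted over 21789 probe sets with 1 gene symbol. In bulk tissue, fewer cells of a type and less RNA per cell cannot be told apart.

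Over both experiments the interferon response genes showed no common direction on the ethanol arrays. Usp18, Oasl2, Bst2 and Irf9 had higher means and Ifitm3, Ifit1, Ifit3 and Irf7 lower ones, 4 of 8 each way. Differences ran from -0.10 for Ifitm3 to 0.07 for Oasl2, with a median of 0.01, against a median of -0.01 over all probe sets tested. None of the 8 passed adjusted p 0.05 (limma, smallest adjusted p = 0.50), where 0% of all probe sets did. At an unadjusted p under 0.05 there were 0 of 8, against 12.4% of all probe sets. The 95% intervals of the 8 differences lay between -0.27 (Ifit1) and 0.20 (Oasl2), which correspond to 1.21-fold lower and 1.14-fold higher.

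**Figure D2:**
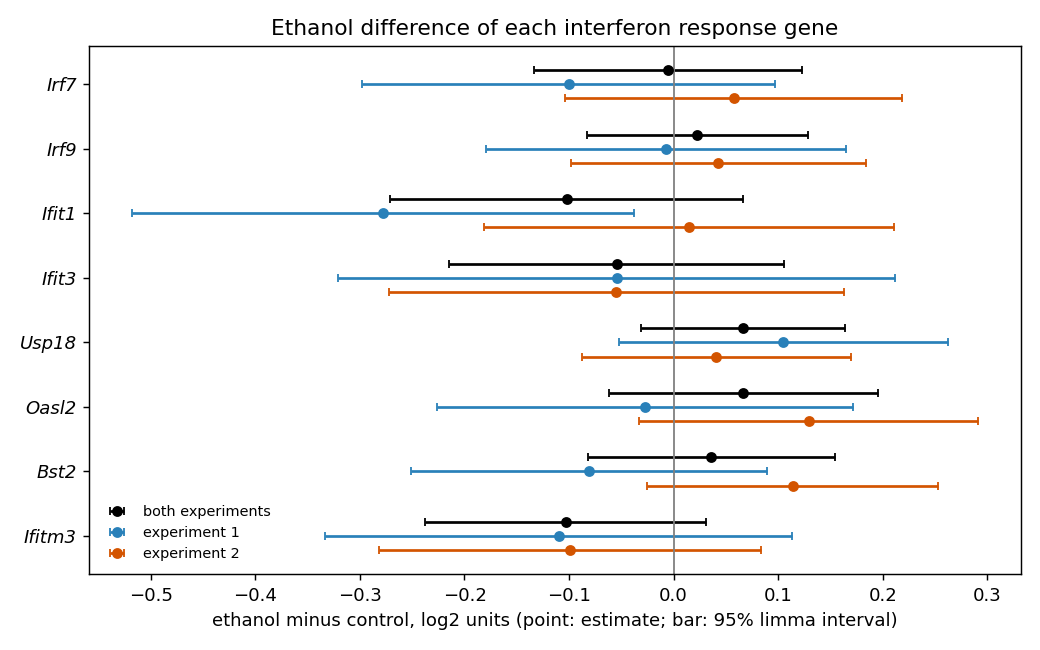
Ethanol minus control difference of each gene in log2 units, with 95% limma intervals, over both experiments (black), in experiment 1 (blue) and in experiment 2 (orange). All intervals include 0 except that of Ifit1 in experiment 1, which ran from -0.52 to -0.04.

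Among the transcription factors, Irf7 is the interferon-induced factor that amplifies interferon transcription. Its log2 levels were 5.29 and 5.25 on the experiment 1 ethanol arrays, against 5.32 and 5.41 on the experiment 1 controls. In experiment 2 they were 5.38, 5.19 and 5.46 on the ethanol arrays, against 5.37, 5.20 and 5.29 on the controls. The ethanol arrays thus lay below the controls in experiment 1 and overlapped them in experiment 2. The difference was -0.01 ± 0.06 over both experiments (SE), with a 95% interval of -0.13 to 0.12 and a limma adjusted p of 0.979.

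Irf9 is the DNA-binding subunit of ISGF3. It had log2 levels of 7.37 and 7.30 on the experiment 1 ethanol arrays, against 7.25 and 7.44 on the experiment 1 controls. In experiment 2 the ethanol arrays had 7.38, 7.34 and 7.37, against 7.32, 7.40 and 7.23 on the controls. The groups overlapped in both experiments, and in each the controls were spread more widely than the ethanol arrays. The difference was 0.02 ± 0.05 (95% interval -0.08 to 0.13, limma adjusted p = 0.865).

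Ifit1 and Ifit3 encode cytosolic tetratricopeptide proteins. IFIT1 binds viral RNA lacking the cap methylation of cellular messages, and IFIT3 partners it in human cells. Ifit1 had log2 levels of 6.60 and 6.72 on the experiment 1 ethanol arrays, against 6.89 and 6.99 on the experiment 1 controls, with no overlap. In experiment 2 it had 6.85, 6.69 and 6.87 on the ethanol arrays, against 6.99, 6.62 and 6.76 on the controls, and the controls spanned the whole ethanol range. The difference in experiment 1 was -0.28 ± 0.11 (SE, limma unadjusted p = 0.0271, adjusted p = 0.491), and in experiment 2 it was 0.01 ± 0.09 (adjusted p = 0.966). It was the 1 member of 8 under unadjusted p 0.05 in experiment 1, where 8.95% of all probe sets were, and it did not pass the adjusted threshold, which 0% passed. The test of the difference between the experiments gave 0.29 ± 0.14 log2 units, experiment 2 minus experiment 1 (limma adjusted p = 0.776).

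Ifit3 had log2 levels of 8.57 and 8.51 on the experiment 1 ethanol arrays, against 8.63 and 8.55 on the experiment 1 controls. In experiment 2 it had 8.47, 8.58 and 8.56 on the ethanol arrays, against 8.87, 8.51 and 8.40 on the controls. Control 1 of experiment 2 stood above all the other arrays of its experiment for Ifit3, and also for Ifit1. The difference over both experiments was -0.05 ± 0.07 (95% interval -0.21 to 0.11, limma adjusted p = 0.776), and without control 1 of experiment 2 it was 0.02. Both genes varied widely between arrays of the same group: their standard deviation within groups, 0.15 for Ifit3 and 0.13 for Ifit1, stood at percentiles 92.4 and 87.1 of all probe sets.

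Ifit3 has a near-identical neighbour, Ifit3b, with a probe set of its own, and probes of such copies can share signal. Ifit3b differed by -0.07 ± 0.08 over both experiments (limma adjusted p = 0.703), by 0.15 in experiment 1 and by -0.22 in experiment 2. Ifit2, the adjacent gene of the cluster, differed by 0.09 ± 0.04 (unadjusted p = 0.0325, adjusted p = 0.375). Its log2 levels were 6.88 and 6.89 on the experiment 1 ethanol arrays, against 6.86 and 6.76 on the experiment 1 controls, and 6.88, 6.93 and 6.88 in experiment 2, against 6.81, 6.79 and 6.80. The ethanol arrays of Ifit2 thus lay above the controls in each experiment. Groups were separated in the same direction in both experiments for 4.29% of all probe sets and for 0 of the 8 members. Ifit1bl2, a further relative, differed by -0.01 ± 0.07.

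**Figure D3:**
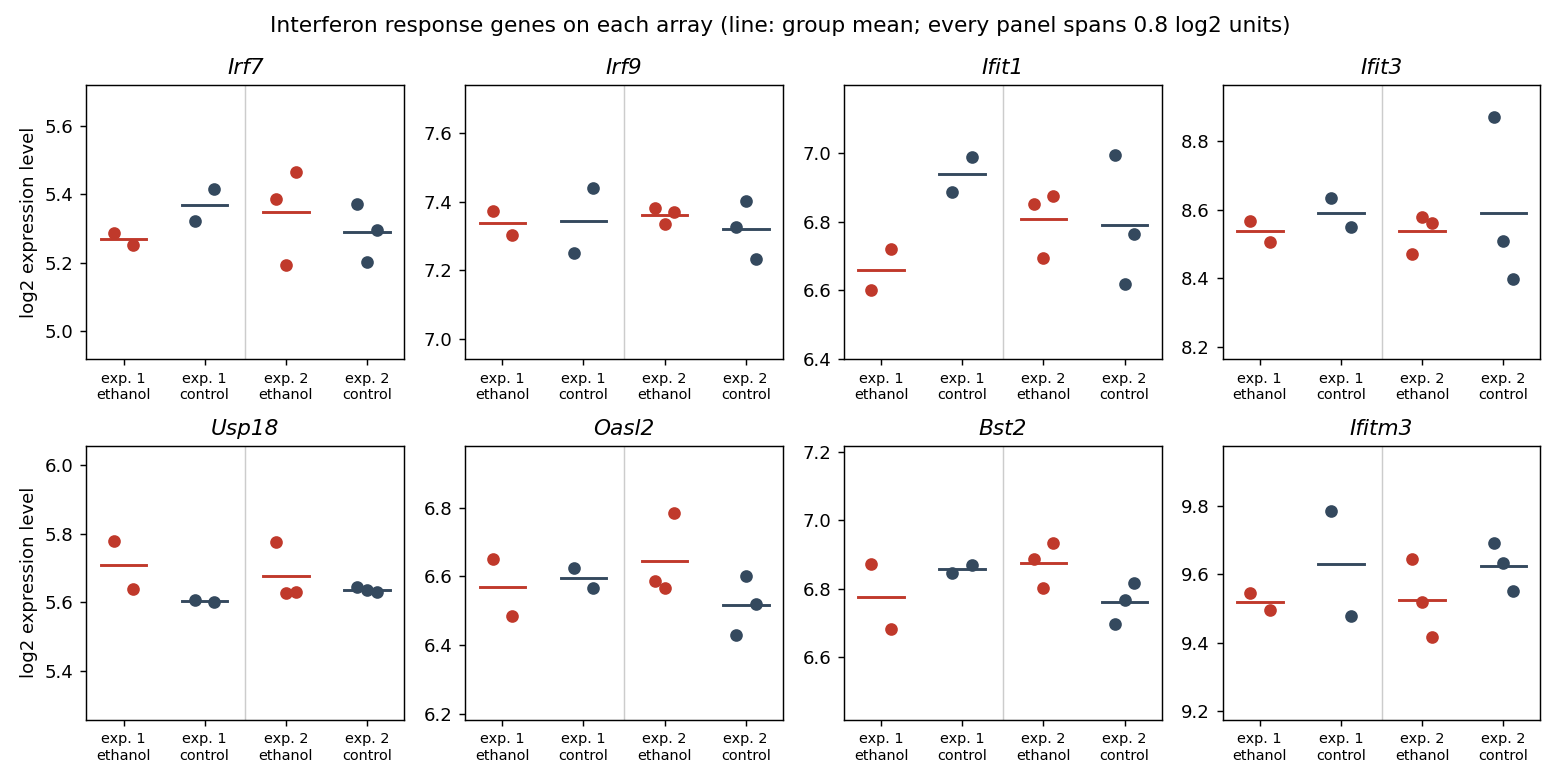
log2 expression level of each gene on each array, with ethanol arrays in red and controls in dark grey, and group means as lines (n = 2 arrays a group in experiment 1 and 3 in experiment 2). Every panel spans the same range. Ifit1 is separated in experiment 1, with ethanol arrays at 6.60 and 6.72 and controls at 6.89 and 6.99, and control 1 of experiment 2 is high for Ifit3 at 8.87.

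Usp18 removes the ubiquitin-like protein ISG15 from its targets and blocks signalling at the interferon receptor. Its log2 levels were 5.78 and 5.64 on the experiment 1 ethanol arrays, against 5.61 and 5.60 on the experiment 1 controls. In experiment 2 they were 5.77, 5.63 and 5.63 on the ethanol arrays, against 5.64, 5.64 and 5.63 on the controls. Ethanol 1 stood highest in each experiment, while the other ethanol arrays lay within 0.04 log2 units of their control mean. The difference over both experiments was 0.07 ± 0.04 (95% interval -0.03 to 0.16, limma adjusted p = 0.544). Without ethanol 1 of experiment 1 it was 0.04.

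Oasl2 belongs to the oligoadenylate synthetase family, which senses double-stranded RNA. It had log2 levels of 6.65 and 6.48 on the experiment 1 ethanol arrays, against 6.63 and 6.57 on the experiment 1 controls. In experiment 2 it had 6.59, 6.57 and 6.78 on the ethanol arrays, against 6.43, 6.60 and 6.52 on the controls. The groups overlapped in both experiments, and ethanol 3 of experiment 2 was the highest array. The difference was 0.07 ± 0.06 (95% interval -0.06 to 0.20, limma adjusted p = 0.644), and without that array it was 0.02. Its neighbour Oasl1 differed by 0.07 ± 0.06 (adjusted p = 0.644).

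Bst2, or tetherin, holds budding virus particles at the cell surface. Its log2 levels were 6.87 and 6.68 on the experiment 1 ethanol arrays, against 6.85 and 6.87 on the experiment 1 controls. In experiment 2 they were 6.89, 6.80 and 6.93 on the ethanol arrays, against 6.70, 6.77 and 6.82 on the controls. Ethanol 2 of experiment 1 was the lowest array of that experiment, and in experiment 2 the lowest ethanol array lay just under the highest control. The difference was -0.08 ± 0.08 in experiment 1 and 0.11 ± 0.06 in experiment 2 (limma adjusted p = 0.793 and 0.572). The difference between them was 0.19 ± 0.10, experiment 2 minus experiment 1 (adjusted p = 0.802).

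Ifitm3 is a membrane protein that hinders the fusion of viruses in endosomes. It had log2 levels of 9.54 and 9.50 on the experiment 1 ethanol arrays, against 9.78 and 9.48 on the experiment 1 controls. In experiment 2 it had 9.64, 9.52 and 9.42 on the ethanol arrays, against 9.69, 9.63 and 9.55 on the controls. Its difference was -0.11 ± 0.10 in experiment 1 and -0.10 ± 0.08 in experiment 2, and the groups overlapped in each. With 1 array left out these ran from -0.263 (without control 2) to 0.044 (without control 1) in experiment 1, and from -0.158 (without ethanol 1) to -0.044 (without ethanol 3) in experiment 2. Over both it was -0.10 ± 0.06, the smallest p among the 8 (unadjusted p = 0.121, limma adjusted p = 0.50), and without control 1 of experiment 1 it was -0.06. Its relatives may share probe signal with it: Ifitm2 had 3 probe sets at -0.07, -0.05 and 0.01, and Ifitm1 had 2 at 0.08 and 0.00. Of the other family members, Ifitm5 was at 0.07, Ifitm6 at 0.12, Ifitm7 at -0.02 and Ifitm10 at -0.01.

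Taken by experiment, 7 of the 8 genes had lower means on the experiment 1 ethanol arrays (median difference -0.07), and 6 of 8 had higher means in experiment 2 (median 0.04). The corresponding medians over all probe sets were 0.00 and -0.01. Only Ifit3, Usp18 and Ifitm3 kept their sign, 3 of 8 genes, against 57.5% of all probe sets. In experiment 2, 0 of 8 passed unadjusted p 0.05, against 9.97% of all probe sets, and 0 passed the adjusted threshold, which 0% passed. The differences between the experiments had a median of 0.10 over the 8 genes, experiment 2 minus experiment 1. None of these passed adjusted p 0.05 (0% of all probe sets did) or unadjusted p 0.05 (6.57% did). Groups without overlap were found for 3 of 8 genes in experiment 1 (Irf7, Ifit1 and Usp18), against 34.3% of all probe sets, and for 0 of 8 in experiment 2, against 19.2%.

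Ethanol 2 of experiment 1 had the lowest level in its experiment for 4 of the 8 genes and the highest for 0, and its median deviation from the control mean was -0.11 log2 units. Ethanol 1 of the same experiment was highest for 3 genes and lowest for 1, with a median deviation of -0.01. Without ethanol 2, the median difference in experiment 1 was -0.01. In experiment 2 the median deviations of ethanol 1, 2 and 3 were 0.07, -0.01 and 0.07, and ethanol 3 and control 1 were each highest for 3 genes.

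Direction also went with signal level on these arrays, over all probe sets. The probe sets were divided into 4 equal bands by mean signal, numbered 1 (lowest) to 4 (highest). In band 1, which held Irf7 and Usp18, 79.3% were higher on the ethanol arrays over both experiments (median difference 0.04). In band 2, which held Irf9, Ifit1, Oasl2 and Bst2, 57.9% were higher (median 0.02). Ifit3 lay in band 3 and Ifitm3 in band 4, where 22.7% and 22.5% were higher (medians -0.05 and -0.04). The 2 genes in bands 3 and 4 had lower means, and 4 of the 6 in bands 1 and 2 had higher means. After quantile normalization, which gives all arrays the same distribution of signal, the median difference of the 8 genes was -0.01 and none of them passed adjusted p 0.05.

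Microglia markers, from cells that can express most of these genes, had lower means on the ethanol arrays in 9 of 13 measured over both experiments, and 0 passed adjusted p 0.05 by limma in any marker list. In experiment 1 they had higher means in 11 of 13 (median 0.04), while 7 of the 8 interferon genes had lower ones. In experiment 2 they had lower means in 10 of 13 (median -0.11), while 6 of the 8 interferon genes had higher ones. The mean log2 level of that list was 8.12 to 8.15 on the experiment 2 ethanol arrays, against 8.15 to 8.32 on the controls, and 8.19 to 8.23 against 8.10 to 8.22 in experiment 1. Endothelial markers had lower means in 10 of 12 over both experiments (median -0.06). The mean levels of the microglia and endothelial lists lay within signal band 3 (7.37 to 9.25). In that band 22.7% of all probe sets had higher means (median -0.05). Single genes of a list can lie in other bands, so this share is not matched to the level of each gene.

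Markers of tissues that adjoin the brain were described in the same way. Pituitary markers had higher means on the ethanol arrays in 8 of 8 over both experiments (median 0.34), against 45.6% of all probe sets. Of these markers, 7 were under unadjusted p 0.05, against 12.4% of all probe sets. Without each in turn of the 3 arrays with high pituitary markers, the median difference of the 8 interferon genes over both experiments was 0.01 (without ethanol 1 of experiment 1), 0.03 (without ethanol 2 of experiment 1) and 0.03 (without ethanol 2 of experiment 2). Both ethanol arrays of experiment 1 were among these 3, so no value for that experiment is free of them. Choroid plexus markers had lower means in 11 of 11 (median -0.11), and meningeal and fibroblast markers in 9 of 10 (median -0.10). The mean levels of both lists also lay within signal band 3, where 22.7% of all probe sets had higher means (median -0.05). Single genes of a list can lie in other bands, as 1 of the 11 choroid plexus genes lay in band 1. The share is thus not matched to the level of each gene. In experiment 1 alone, choroid plexus markers had lower means in 8 of 11 (median -0.05), and meningeal and fibroblast markers had higher means in 7 of 10 (median 0.03). In experiment 2 alone, lower means were found in 11 of 11 (median -0.24) and 9 of 10 (median -0.18). The mean log2 levels of both lists in experiment 2 did not overlap: 7.84 to 7.97 on the ethanol arrays, against 8.07 to 8.20 on the controls, for choroid plexus, and 7.76 to 7.80, against 7.92 to 8.03, for meninges and fibroblasts. Blood and lymphocyte markers had higher means in 10 of 11 (median 0.05), and 7 of these 11 lay in signal band 1, where 79.3% of all probe sets were higher. Olfactory mucosa markers had higher means in 3 of 9 (median -0.02). Log2 array signal has no zero point, so the absence of a marker could not be read from its level. The part of these cells and tissues in the differences of the interferon genes was not tested.

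The wider pathway was described through 7 lists with 130 measured genes, none of them members. Over both experiments 70 of the 130 had higher and 60 lower means, with a median difference of 0.00, and 0 passed adjusted p 0.05 by limma. Unadjusted p was under 0.05 for 8 with higher and 7 with lower means, 11.5% of the 130, beside the 12.4% of all probe sets given above.

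The interferon genes themselves had higher means in 14 of 16 (median 0.07), against 45.6% of all probe sets. Under unadjusted p 0.05 there were 2 of the 16, against 12.4% of all probe sets. The 2 were the interferon alpha genes Ifna14 (0.22 ± 0.07) and Ifna16 (0.23 ± 0.08), at limma adjusted p of 0.315 and 0.326. Ifna14 had log2 levels of 6.95 and 6.73 on the experiment 1 ethanol arrays, against 6.53 and 6.84, and 6.83, 6.84 and 7.01 in experiment 2, against 6.74, 6.55 and 6.60. It was separated in experiment 2, as were 19.2% of all probe sets, and overlapped in experiment 1. Ifna16 differed by 0.05 in experiment 1 and by 0.35 in experiment 2. Interferon alpha genes are close copies of one another and can share probe signal. Of the 16, 5 lay in signal band 1, where 79.3% of all probe sets had higher means. Ifna14 and Ifna16 lay in band 2, where 57.9% had. Ifna11 (0.11 ± 0.05) and Ifnk, an interferon of keratinocytes (0.10 ± 0.05), followed.

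Receptor and JAK-STAT genes had lower means in 12 of 17 (median -0.07), while 45.6% of all probe sets had higher means. Under unadjusted p 0.05 there were 4 of the 17, against 12.4% of all probe sets in either direction. These 4 had lower means, and 0 of those with higher means were under it. Ifnar1 and Ifnar2, the subunits of the type I interferon receptor, were among these 4, at -0.14 ± 0.05 and -0.12 ± 0.05 (limma adjusted p = 0.315 and 0.359). Ifnar1 had log2 levels of 9.07 and 8.99 on the experiment 1 ethanol arrays, against 9.21 and 9.22 on the experiment 1 controls, and 9.02, 9.03 and 9.16 in experiment 2, against 9.11, 9.24 and 9.19. Ifngr1, the ligand-binding chain of the interferon gamma receptor, was at -0.18 ± 0.05 (adjusted p = 0.306), with no overlap in either experiment. Such separation in the same direction was found for 4.29% of all probe sets. In experiment 1 the nearest arrays of Ifngr1 were at 8.82 (ethanol) and 8.85 (control). Pias1, a SUMO ligase, was at -0.11 ± 0.04 (adjusted p = 0.359). Ifnar1, Ifnar2 and Ifngr1 lie in signal band 3, where the median of all probe sets was -0.05.

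Other interferon-stimulated genes were evenly divided, with 31 higher and 25 lower means among 56 (median 0.00). Those with the smallest p were Mx2, a dynamin-like antiviral GTPase (0.13 ± 0.04), Rnase6, a secreted antimicrobial ribonuclease (0.17 ± 0.06), Cxcl9, a chemokine for activated T cells (0.17 ± 0.07), and Sp100, a nuclear body protein (-0.11 ± 0.04), at limma adjusted p of 0.315 to 0.355. Nucleic acid sensors and adaptors had higher means in 9 of 18, with Tlr3, the endosomal receptor for double-stranded RNA, at -0.16 ± 0.05 and Tlr8 at 0.12 ± 0.05 (adjusted p = 0.316 and 0.359). Mavs, the mitochondrial adaptor of RNA sensors, was at -0.11 ± 0.05 and Ticam2, an adaptor of Toll-like receptors, at 0.10 ± 0.05. Mx2, Rnase6, Tlr8 and Ticam2 lay in signal band 1, where 79.3% of all probe sets had higher means. Cxcl9 and Sp100 lay in band 2, where 57.9% had, and Tlr3 and Mavs in band 3, where 22.7% had.

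The remaining interferon regulatory factors and their corepressors had higher means in 5 of 8, from Irf2bp1, which encodes a corepressor that binds IRF2 (-0.09 ± 0.04), to Irf8 (0.08 ± 0.06), with Irf2 at -0.07 ± 0.06 and Irf3 at -0.04 ± 0.06. Without ethanol 1 of experiment 1, Irf8 was at 0.04, Irf2 at -0.02 and Irf3 at -0.09, and without ethanol 2 of experiment 1 Irf3 was at -0.01. Of the 4 enzymes listed for the attachment of ISG15 to proteins, Herc6 was at -0.12 ± 0.08, Uba7 at 0.07 ± 0.06, Arih1 at -0.04 ± 0.04 and Ube2l6 at -0.05 ± 0.06. With 1 array left out these ran from -0.18 to -0.07 for Herc6, 0.02 to 0.10 for Uba7, -0.05 to -0.02 for Arih1 and -0.08 to -0.02 for Ube2l6. The extremes came without ethanol 2 of experiment 1 or ethanol 2 of experiment 2 for Herc6, ethanol 1 of either experiment for Uba7, control 1 or 3 of experiment 2 for Arih1, and ethanol 2 or 1 of experiment 1 for Ube2l6. Class I antigen presentation genes had higher means in 5 of 11. The class I transactivator Nlrc5 had the smallest p of that list (0.19 ± 0.06, limma adjusted p = 0.326). The proteasome activator subunit Psme2 was at -0.17 ± 0.10, the peptide-loading protein Tapbp at -0.10 ± 0.06 and the immunoproteasome subunit Psmb10 at -0.07 ± 0.05. Psme2 was at -0.27 without control 2 of experiment 1 and at -0.11 without control 2 of experiment 2. Tapbp was at -0.06 without ethanol 3 of experiment 2, and Psmb10 at -0.04 without ethanol 1 of experiment 1.

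**Figure D4:**
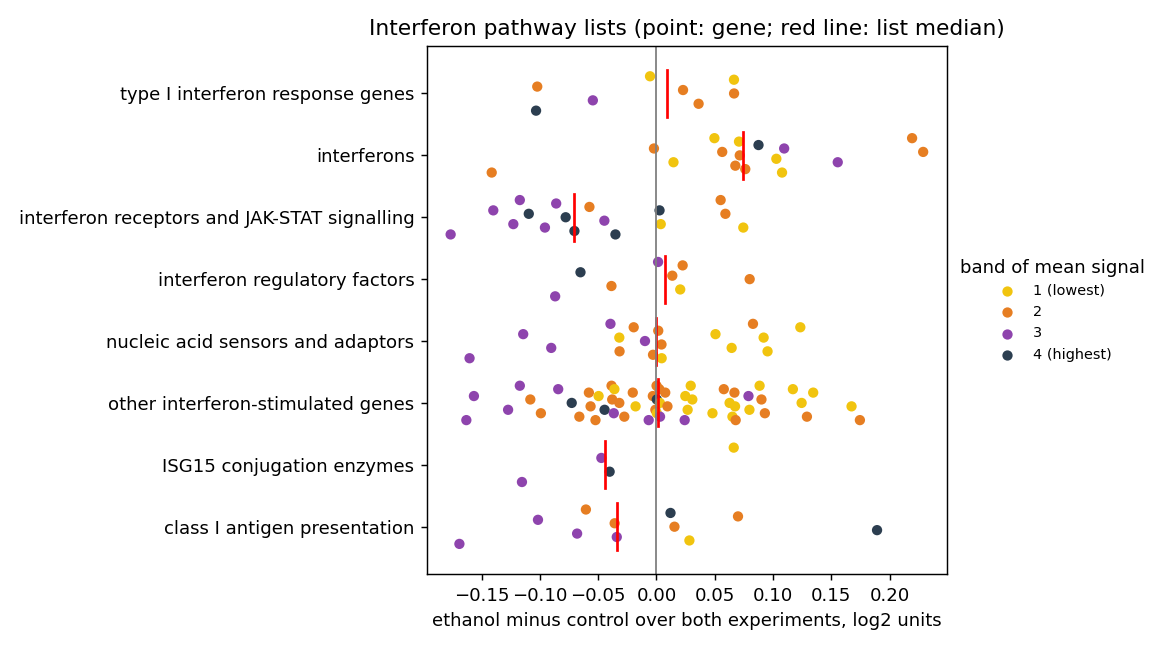
Ethanol minus control difference over both experiments, in log2 units, for the 8 interferon response genes and the 130 genes of 7 pathway lists. Each point is a gene, coloured by the band of mean signal of its probe set (1 lowest, 4 highest), and red lines are list medians. Medians are 0.01 for the 8 genes, 0.07 for interferons and -0.07 for receptors and JAK-STAT genes.

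The genes most like the interferon genes in their variation between arrays of the same group were found by the correlation with the mean of the 8 genes over 10 arrays, after each experiment and treatment mean was subtracted. Among 20367 candidate probe sets, the 5 highest were Dck, a deoxycytidine kinase (r = 0.965), Lrrn2 (0.956), Rars2, a mitochondrial arginyl-tRNA synthetase (0.943), Eef2k, the kinase of elongation factor 2 (0.942), and Gla, a lysosomal galactosidase (0.941), with Spearman's rho of 0.903 to 0.964. None of these is on the pathway lists. The 10 deviations from 4 group means leave 6 degrees of freedom, and 0.152% of the candidates exceeded 0.9. With so few degrees of freedom, the highest of 20367 candidates can reach such values by chance. Whether these 5 share anything with the interferon genes was not tested. The 8 genes varied little in common: the correlation of each with the mean of the other 7 ran from -0.03 (Oasl2 and Ifitm3) to 0.60 (Irf7).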

How the data were processed

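The authors deposited log2 expression levels, in a table of 35556 probe sets by 10 arrays without gaps. The submitters' processing notes name Partek 6.6. For background correction, normalization and genome build the sources give no detail. Gene names came from the annotation table of the array platform. It covers 23410 probe sets, of which 21789 carry 1 symbol and were tested and 1621 carry several. RefSeq symbols (GRCm38.p6) matched by Entrez identifier changed 0 names.

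The limma package (version 3.58.1, R 4.3.3) gave two-sided tests from lmFit and eBayes, with Benjamini-Hochberg adjustment over all 21789 probe sets. Experiment and treatment were the terms of the comparison over both (7 residual degrees of freedom). A model of 4 group means gave the differences within experiments and between them (6 residual degrees of freedom). Sample groups came from array titles. The procedure was tested on simulated data. In lists, the probe set with the highest mean stood for a gene, and up to 4 genes a list were named by smallest unadjusted p. The nearest relatives of the members (Ifit, Ifitm and Oasl families) were named after their values were seen. The members and lists were chosen with earlier results of these data known.

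The deviations of ethanol and control arrays with the same replicate number correlated at -0.05 in experiment 1 and at 0.01, -0.15 and 0.23 in experiment 2. With 2 arrays a group, both replicate numbers of experiment 1 give the same value by construction. The deviations within a group of experiment 2 also depend on one another. These values therefore cannot settle whether replicate numbers pair the arrays. The alternatives changed the normalization, the filter on dim probe sets, the variance prior, the array weights and the experiment and replicate terms, or left out an array. The precision is limited by the number of arrays. Figures were drawn with matplotlib 3.10.9.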

Additional observations from a re-analysis of the deposited data

How the results depend on the processing

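None of the 8 genes passed adjusted p 0.05 by limma in the comparisons of ethanol with control, over both experiments or within either, under any alternative run (smallest adjusted p = 0.297, for Ifitm3 without control 2 of experiment 1). An unmoderated linear model over both experiments also called 0 probe sets, with 2422 at an unadjusted p under 0.05, against 2703 by limma. Over both experiments the count of probe sets past the threshold stayed 0 except without ethanol 2 of experiment 1, where it was 1. In experiment 1 it was 1 with that experiment fitted alone, 2 with the replicate block in that fit, and 0 to 235 with an array left out. The 235 arose without ethanol 1 of experiment 1, where the spread of the single ethanol array left is taken from the other groups. In experiment 2 it was 3 with trend and robust settings, 2 with array weights and 0 to 1 with an array left out, and for the difference between experiments 0 to 94. With the replicate block over both experiments it was 0, and 2638 probe sets had an unadjusted p under 0.05. The cause of these changes was not tested.

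The median difference of the 8 genes kept within 0.0697 log2 units, its spread between replicates, except with the filter at the median level, which leaves 2 of them, Ifit3 and Ifitm3: -0.079 over both experiments, -0.077 in experiment 2 and 0.0053 between experiments. Small differences changed sign. With quantile normalization Ifit3 was at 0.000735 in experiment 1 and Ifit1 at -0.021 in experiment 2. With median centring Irf9 was at -0.00458 over both experiments and Ifit1 at -0.025 in experiment 2, where array weights gave -0.00209. With an array left out, the differences over both experiments ran from -0.046 to 0.028 for Irf7, -0.0037 to 0.057 for Irf9 and -0.107 to 0.021 for Ifit3. In experiment 1 they ran from -0.102 to 0.088 for Irf9, -0.111 to 0.057 for Oasl2, -0.175 to 0.014 for Bst2 and -0.263 to 0.044 for Ifitm3. In experiment 2 they ran from -0.00059 to 0.135 for Irf7, -0.00083 to 0.084 for Irf9, -0.072 to 0.116 for Ifit1, -0.152 to 0.084 for Ifit3 and -0.0078 to 0.066 for Usp18.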

Other observations

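Nlrc5, the transactivator of class I antigen presentation and itself inducible by interferons, is covered by 19 probe sets, more than any other gene named here. Of these, 17 had higher means on the ethanol arrays over both experiments, with differences from -0.04 to 0.24. By limma, 7 of the 19 had an unadjusted p under 0.05 (smallest adjusted p = 0.306), against 12.4% of all probe sets. Of the 19, 9 lay in signal band 1 and 7 in band 2, where 79.3% and 57.9% of all probe sets had higher means, and 2 lay in band 3 and 1 in band 4, where 22.7% and 22.5% had. Probe set 10574141 had log2 levels of 7.92 and 7.80 on the experiment 1 ethanol arrays, against 7.62 and 7.75 on its controls, and 7.70, 7.97 and 8.07 in experiment 2, against 7.57, 7.61 and 7.70. The probe sets are annotated to the same gene and cannot be counted as independent of one another. Their mean log2 levels ran from 5.03 to 9.99, and whether they report the same RNA was not tested. The difference of 0.19 given above for Nlrc5 came from the probe set at 9.99. This gene was singled out after its values were seen.

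Psme2, which encodes a proteasome activator subunit, was at 0.13 in experiment 1 and -0.37 in experiment 2, and the difference between them had an unadjusted p of 0.00531 and an adjusted p of 0.665 by limma. In that comparison 6.57% of all probe sets had an unadjusted p under 0.05. The log2 levels of Psme2 in experiment 1 were 8.66 and 8.55 on the ethanol arrays, against 8.65 and 8.29 on the controls. In experiment 2 they were 8.41, 8.39 and 8.25 on the ethanol arrays, against 8.69, 8.85 and 8.62 on the controls. Its groups were separated in experiment 2, as were 19.2% of all probe sets. Psme2 too was singled out after its values were seen.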
